A study of Mus musculus with 495 samples.

Results

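The 7 genes Slc38a5, Slc7a2, Slc38a10, Slc7a5, Slc3a2, Slc38a2 and Slc38a4, each of which encodes an amino acid transporter or a subunit of one, were followed across the cell classes of the mouse embryonic pancreas. They are 7 of the 23002 genes counted. They were chosen by their measured levels (CPM) in glucagon cells, acinar cells and Neurog3-positive cells, so those levels are given as a description and carry no test. The data were Smart-seq read counts of 495 single cells, 1 cell to a well, on 7 plates. Neurog3-eGFP knock-in mice gave all cells of embryonic day E15.5. These were plates EA01 (73 cells) and EA03 (70) of the Neurog3 code, EA02 (72) and EA05 (85) of the endocrine code, and EA04 (66) of the duct code. The cells of E17.5, on EA06 (57) and EA07 (72), came, per the labels, from Neurog3-Cre mice with the Rosa-mTmG reporter, in which Cre driven by Neurog3 switches a membrane-bound fluorescent protein, so cells stay marked after Neurog3 is off. Stage, strain and plate cannot be told apart. The labels name no animal or litter, so each group counted as 1 sample, no test was run, and the spread between plates is given in place of replicate error.

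Amino acids cross the plasma membrane through carriers that differ in substrate and in drive. Slc38a5 (SNAT5) is a sodium-coupled carrier of glutamine and other neutral amino acids that exchanges protons, and it is known in the islet as an alpha cell gene on which alpha cell growth depends when amino acids rise in blood. Slc7a2 (CAT2) carries the cationic amino acids arginine, lysine and ornithine, and arginine is a classical stimulus of glucagon release. Slc7a5 (LAT1) is the light chain, and Slc3a2 (CD98, 4F2hc) the heavy chain, of an exchanger that brings large neutral amino acids such as leucine into growing and protein-making cells. Slc38a2 (SNAT2) and Slc38a4 (SNAT4) are sodium-coupled carriers of small neutral amino acids, and Slc38a10 is a less studied member of the same family. Acinar cells make digestive enzymes in bulk and take up amino acids for it.

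On GRCm38, Slc38a5 lies on chromosome X at 8271133 to 8280179 (plus strand), Slc7a2 on chromosome 8 at 40862396 to 40922308 (plus) and Slc7a5 on chromosome 8 at 121881150 to 121907694 (minus). Slc3a2 lies on chromosome 19 at 8706882 to 8723369, Slc38a10 on chromosome 11 at 120103960 to 120151346, and Slc38a2 and Slc38a4 on chromosome 15 at 96687392 to 96699730 and 96994820 to 97055956, all on the minus strand. Exons of Slc7a2 share 635 bases (6.95% of its exon length) with Gm26584, and those of Slc38a10 share 367 bases (5.72%) with Gm11769, both on the opposite strand. Neither overlapping gene is a row of the table, and strand was not marked, so reads of each pair cannot be told apart.

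The stretch before the annotated start is shown for a pair of members with opposite patterns: Slc38a5, with no read on plate EA04, and Slc38a2, read in every class. The start used is that of RefSeq, which for Slc38a5 is 8271381, inside the gene span given above. The sequences are from RefSeq (GRCm38.p6), written 5′ to 3′ on the strand of the gene, limited to bases outside annotated exons, with each CG pair in capitals.
Slc38a5, chrX:8271261-8271380, plus strand: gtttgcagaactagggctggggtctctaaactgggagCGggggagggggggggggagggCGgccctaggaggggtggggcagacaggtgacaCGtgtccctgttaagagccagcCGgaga
Slc38a2, chr15:96699731-96699978, minus strand: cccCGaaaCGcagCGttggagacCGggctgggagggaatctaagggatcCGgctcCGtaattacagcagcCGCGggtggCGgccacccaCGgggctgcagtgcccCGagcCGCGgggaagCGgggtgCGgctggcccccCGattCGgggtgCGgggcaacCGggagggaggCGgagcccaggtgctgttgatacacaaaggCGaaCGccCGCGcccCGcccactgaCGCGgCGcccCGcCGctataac
The 250 bases before the start of Slc38a5 held 8 CG pairs, and 43% of 32851 annotated promoters of that length held as many. The same window of Slc38a2 held 30 CG pairs, which 5.94% of promoters reached, against a median of 6. The letters TGATGNAA, or TTNCATCA on the other strand, the core of the amino acid response element, were in none of the 7 windows of 300 bases found for 5 of the members, and in 3.97% of all such windows. At so low a share 7 windows are too few for their absence to be read as a result. Slc7a2 and Slc7a5 had no entry.

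Classes were cut from each cell's own counts per 1000000 counts (CPM). A cell was hormone-dominated when its highest hormone, of insulin (Ins1 and Ins2 summed), Gcg, Sst, Ghrl and Ppy, reached 1000 CPM and made up at least 50% of their sum. An EA04 cell was acinar when 9 digestive enzyme genes summed to at least 5000 CPM. Other cells with Neurog3 at 20 CPM or more, outside EA04, were Neurog3-positive. This gave 186 Neurog3-positive, 19 Gcg-dominated, 69 insulin-dominated, 27 Sst-dominated, 28 Ghrl-dominated and 11 Ppy-dominated cells, 43 acinar cells, 23 other cells of EA04, and 89 cells of the remaining plates with neither. The enzyme sum left a gap on EA04 from 767 to 17886 CPM. The cells nearest the hormone threshold had 991 and 1053 CPM, those nearest the Neurog3 threshold 17.1 and 20.3 CPM, and 16 cells lay between 500 and 2000 CPM of their top hormone.

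The names were checked on marker genes. Of 7 alpha cell markers, 6 reached 20 CPM in the Gcg-dominated cells, with Irx2 at 249 CPM, while 6 of 7 had 0 counts in the acinar cells. The acinar list of 13 holds the 9 enzymes that cut the class, so its sum (58701 CPM against 61.7 CPM in the Gcg-dominated cells) restates the rule. The 4 others (Ptf1a, Bhlha15, Rbpjl and Nr5a2), which the rule did not use, also reached 20 CPM in the acinar cells, with Ptf1a at 132.7 CPM. The plate coded duct thus held acinar cells and a remainder of 23 cells, in which duct markers summed to 6486 CPM and mesenchyme markers to 6532 CPM, against 28.8 CPM of the latter in the acinar cells. Per cell of the remainder the duct markers had a median of 782 CPM and a highest value of 25262 CPM. Their median in acinar cells was 2593 CPM. The mesenchyme markers had a median of 6433 CPM in the remainder, where mesothelium and endothelial markers summed to 626 and 271 CPM. The acinar cells also carried Mki67, a gene of dividing cells, at 299 CPM, against 12.4 CPM in Neurog3-positive and 0 in Gcg-dominated cells. Among the Gcg-dominated cells the single cell of EA03 held 11774 CPM of mesenchyme markers, and the pancreatic polypeptide list summed to 10865 CPM over the class.

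Depth and plates bear on all levels below. Cells held 200152 to 1182889 counts, and class medians ran from 436768 (acinar) to 686186 (Ppy-dominated). The ribosomal RNA gene Rn45s took 20.6% to 23.04% of the counts of EA01 to EA04 and 8.83% to 10.3% of those of EA05 to EA07, so all acinar cells are on a plate with the higher share. Rows D and H of EA01 to EA03 stood apart in insulin: their 10 insulin-dominated cells had a median of 175255 CPM of insulin, against 11547 CPM in the 18 from other rows of these plates. Fewer cells expressing a gene and fewer reads per cell both lower a class sum, which is why shares of cells stand beside the levels. Intervals are exact 95% intervals for counting error alone.

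Slc38a5 was the most abundant member in every hormone-dominated class on the scale of CPM per kilobase of exon, and no read of it was found on EA04. Its level was 9101 CPM (9044 to 9157) in Gcg-dominated cells, 4164 CPM in Ppy-dominated, 2345 CPM in Ghrl-dominated, 2222 CPM in insulin-dominated and 1106 CPM in Sst-dominated cells. Cells with neither a dominant hormone nor Neurog3 had 2477 CPM, and Neurog3-positive cells 624 CPM (619 to 629). All 43 acinar cells and all 23 other cells of EA04 had 0 counts. A floor of 3 counts over the class, the limit used for every level of 0 here, is 0.162 CPM in the acinar and 0.282 CPM in the other cells of EA04. The order of the middle classes is not firm, since plates of at least 5 cells ran from 382 to 4659 CPM in the cells with neither, from 137.4 to 2847 CPM in insulin-dominated and from 1544 to 1880 CPM in Ghrl-dominated cells.

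**Figure D1:**
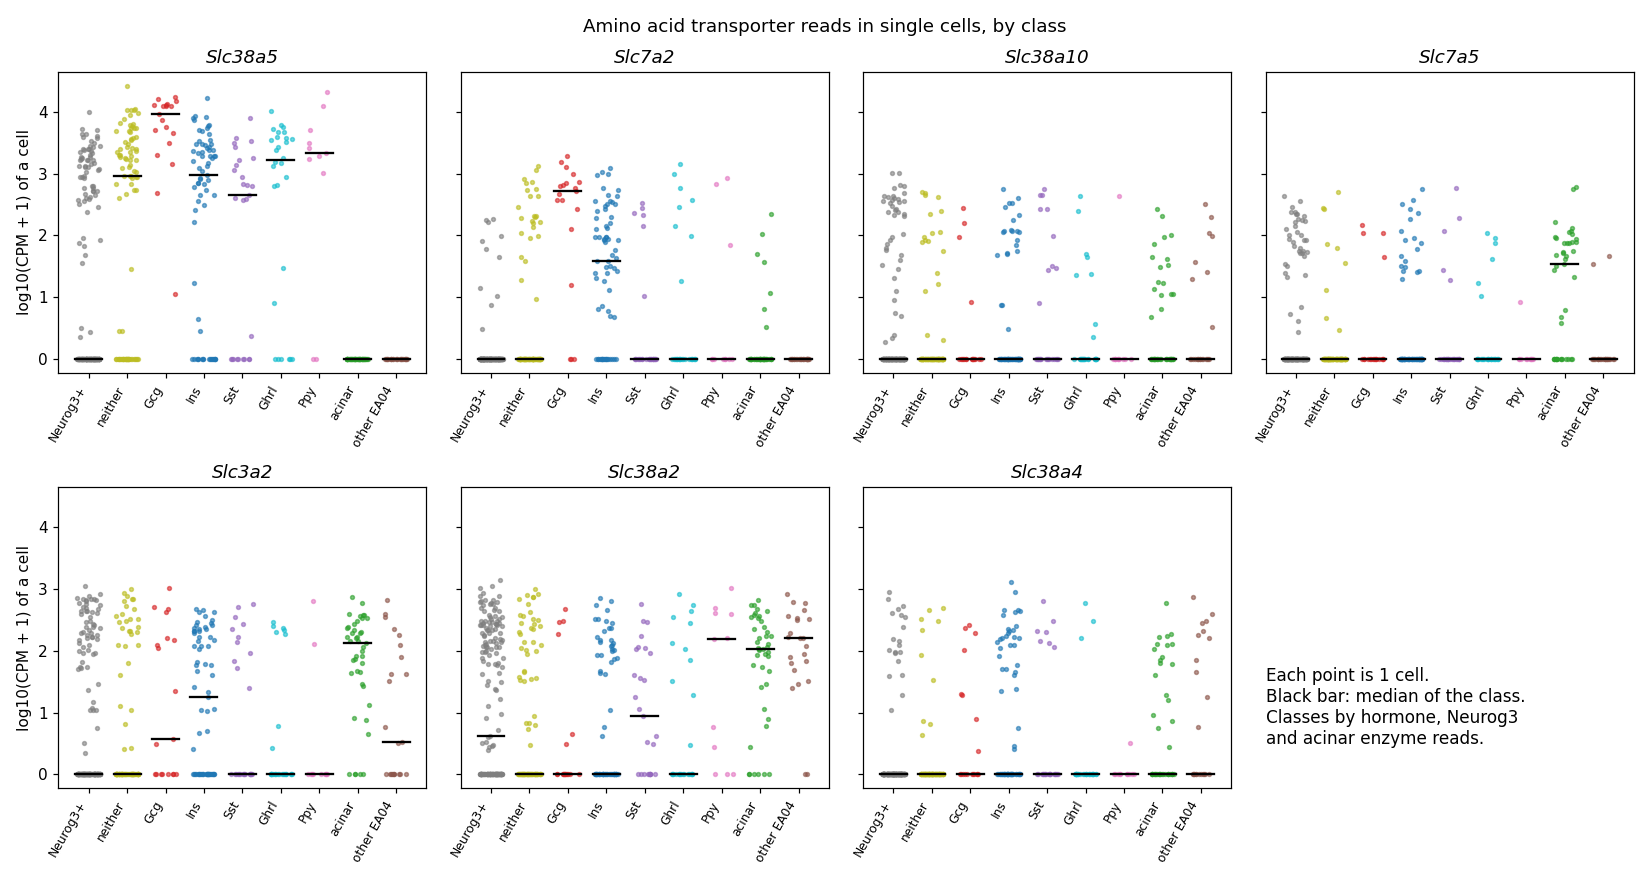
Each panel plots 1 transporter gene, with log10(CPM + 1) of every cell on the vertical axis and the 9 classes on the horizontal axis; points are cells and black bars are class medians. Slc38a5 sits at a median of 9256 CPM in Gcg-dominated cells and at 0 in all acinar cells, while Slc7a5, Slc3a2 and Slc38a2 have medians above 0 in acinar cells.

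Within the 19 Gcg-dominated cells Slc38a5 ran from 10.5 CPM through a median of 9256 CPM to 17053 CPM, and 18 of them (94.7%, 73.97 to 99.9) reached 20 CPM. The lowest of these cells was also the one with the most glucagon, in well D2 of EA02, at 225499 CPM of Gcg. The next lowest cell had 482 CPM of Slc38a5, and 17 of 19 were above 1000 CPM. Gcg itself spanned 3386 to 225499 CPM, and the cell with the least Gcg had 12455 CPM of Slc38a5. Without well D2 the class level was 9342 CPM.

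By plate, the Gcg-dominated cells had 14080 CPM of Slc38a5 on EA01 (3 cells), 11754 on EA02 (3), 3137 on EA03 (1), 7760 on EA05 (9), 8721 on EA06 (2) and 9256 on EA07 (1). Neurog3-positive cells had 471 CPM (EA02) to 909.5 CPM (EA06) on the same 6 plates. No plate overlapped between the classes, at either stage. Within a plate the log2 ratio, formed on CPM + 5 as everywhere here, ran from 2.24 (EA03) to 4.63 (EA02).

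Neurog3-positive cells were divided for Slc38a5: the median was 0, 65 of 186 (34.9%, 28.1 to 42.3) reached 20 CPM, and the highest cell had 9908 CPM. Fev, a transcription factor gene of later endocrine precursors, split them further in a comparison chosen after the values were seen. The 47 cells with Fev at 20 CPM or more had 1391 CPM of Slc38a5 and 30 of them (63.8%) reached 20 CPM, against 301 CPM and 35 cells (25.2%) among those without Fev. The difference in summed level was on every plate with at least 5 cells of each kind: 1763 against 246 CPM on EA01, 1594 against 258 on EA02, 1703 against 458 on EA06 and 974 against 154.8 on EA07. On EA02 and EA06 it rests on few cells. The 7 cells with Fev on EA02 had a median of 0 and a highest cell of 4330 CPM. The 7 on EA06 had a median of 46.9 CPM and a highest cell of 9908 CPM. The shares at 20 CPM were 77.8% against 20% on EA01, 42.9% against 20% on EA02, 57.1% against 30.8% on EA06 and 57.9% against 12.5% on EA07. Cells with Fev were deeper (median 617978 against 505957 counts) and lower in Neurog3 (1975 against 4581 CPM). By plate the cells with Fev had the higher median depth on EA01 and EA07 and the lower on EA02 and EA06, and the part of depth was not tested.

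Insulin-dominated cells were mixed for Slc38a5 too, with 17 of 69 at 0 counts, 49 (71.01%, 58.8 to 81.3) at 20 CPM or more and a highest cell of 16834 CPM. Of the 20 insulin-dominated cells under 20 CPM, 9 came from rows D and H of EA01 to EA03. In these rows 1 of 10 insulin-dominated cells reached 20 CPM and the level was 36.1 CPM, against 17 of 18 and 2798 CPM in the other rows of these plates. Their median depth was 250683 against 532887 counts. The Gcg-dominated cell of well D2 with 10.5 CPM and the 2 Sst-dominated cells of these rows (193 CPM, against 1139 CPM in the other 25) had the same direction. The comparison was chosen after the values were seen, and what sets these wells apart is not given in the sources used here. Slc7a5 also was lower there, at 2.72 against 56.4 CPM and 0 of 10 against 5 of 18 cells. Slc7a2 (153.1 against 75.97 CPM), Slc3a2 (115.8 against 61.7 CPM) and Slc38a4 (100.2 against 77.5 CPM) were not lower there. Slc38a10 (29.1 against 56.5 CPM) and Slc38a2 (61.4 against 81.4 CPM) were lower in level but not in share of cells at 20 CPM. Those shares were 4 of 10 against 6 of 18 for Slc38a10 and 6 of 10 against 7 of 18 for Slc38a2.

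Slc7a2, the cationic carrier, was read mainly in hormone-dominated cells, with its highest level in the Gcg-dominated ones. Its level was 567 CPM (553 to 582) in Gcg-dominated cells, 154.6 CPM in insulin-dominated, 137.9 CPM in Ppy-dominated, 126.9 CPM in Ghrl-dominated and 41.6 CPM in Sst-dominated cells. It stood at 104.1 CPM in cells with neither, at 10.04 CPM in acinar cells and at 5.29 CPM (4.86 to 5.75) in Neurog3-positive cells, with 0 counts in the other cells of EA04. Gcg-dominated cells ran from 0 through a median of 532 CPM to 1952 CPM and 15 of 19 (78.9%) reached 20 CPM. Of Neurog3-positive cells, 7 of 186 (3.76%) did, 6 of them at E17.5, and of acinar cells 4 of 43 (9.30%). Slc7a2 was thus found with Slc38a5 in most Gcg-dominated cells, but unlike Slc38a5 it was almost unread in cells with Neurog3, Fev-positive ones included (12.6 CPM).

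Slc7a2 in Gcg-dominated cells was 742, 419, 465 and 700.2 CPM on EA01, EA02, EA03 and EA05, but 329 CPM on EA06 and 14.8 CPM in the only cell of EA07. Insulin-dominated plates ran from 67.5 CPM (EA01) to 238 CPM (EA06). So Gcg-dominated cells lay above every insulin-dominated plate on the E15.5 plates, and overlapped them at E17.5, where there were 3 Gcg-dominated cells.

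**Figure D2:**
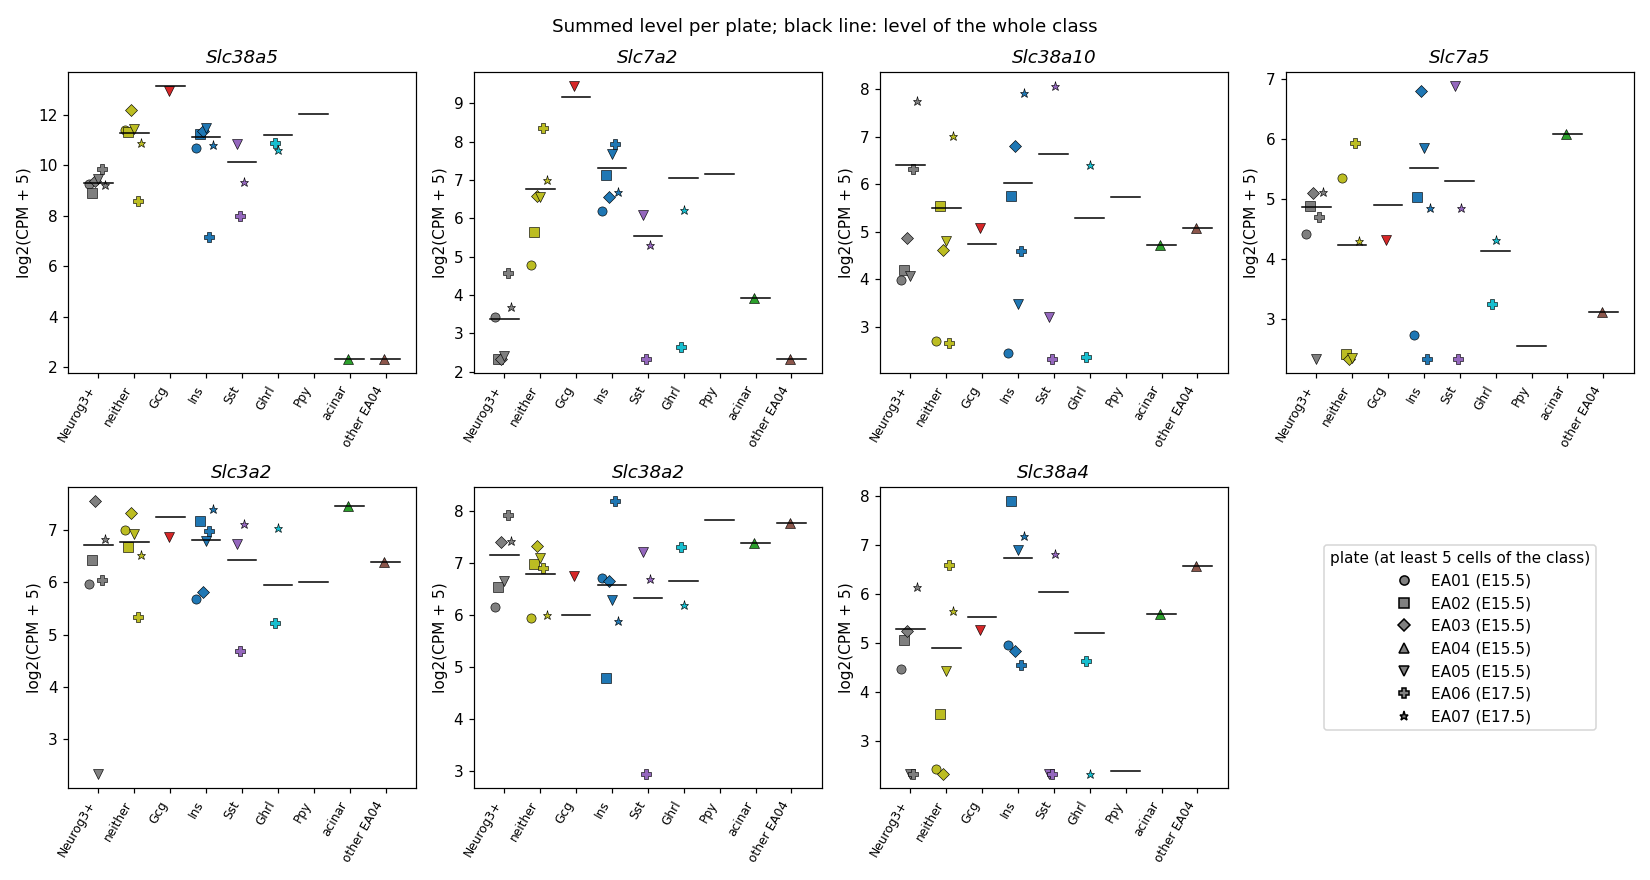
Each panel plots 1 gene, with log2(CPM + 5) of the summed cells of a class on a plate on the vertical axis and the classes on the horizontal axis; marker shapes are plates with at least 5 cells of the class and black lines are the level of the whole class. Slc38a5 lies between 471 and 909.5 CPM in Neurog3-positive cells on all 6 plates, while Slc38a10 is highest on EA07 in each of the 5 classes that have this plate.

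The exchanger chains Slc7a5 and Slc3a2 had their highest levels in acinar cells. Slc7a5 stood at 62.6 CPM (59.1 to 66.4) there, at 40.4 CPM in insulin-dominated, 34.03 CPM in Sst-dominated, 24.7 CPM in Gcg-dominated and 23.9 CPM (22.97 to 24.8) in Neurog3-positive cells. Ghrl-dominated cells had 12.4 CPM, the other cells of EA04 had 3.58 CPM and Ppy-dominated cells 0.805 CPM from 6 counts. Acinar cells ran from 0 through a median of 33.9 CPM to 614 CPM, and 25 of 43 (58.1%, 42.1 to 72.99) reached 20 CPM. Of Neurog3-positive cells 34 of 186 did (18.3%, 13 to 24.6), of Gcg-dominated cells 4 of 19 (21.1%) and of insulin-dominated cells 18 of 69 (26.1%). With every cell thinned to 200152 counts the shares were 51.2% in acinar, 17.2% in Neurog3-positive and 23.2% in insulin-dominated cells.

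The acinar level of Slc7a5 comes from 1 plate, and EA03 reached 105.6 CPM in insulin-dominated and EA05 113.1 CPM in Sst-dominated cells. So the acinar level lies within the plate range of these classes, while it is above all 6 plates of Neurog3-positive cells (0 to 29.4 CPM). The level in Neurog3-positive cells was 0 on EA05, where the class had 7 cells.

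Slc3a2 was read in every class. It stood at 171 CPM (165 to 177) in acinar, 148.2 CPM (141.1 to 155.6) in Gcg-dominated, 107.8 CPM in insulin-dominated and 99.5 CPM in Neurog3-positive cells, and at 56.7 to 104.7 CPM in the others. The acinar cells ran from 0 through a median of 130.5 CPM to 739.8 CPM. The share at 20 CPM was 34 of 43 (79.1%, 63.96 to 89.96) in acinar cells, 34 of 69 (49.3%) in insulin-dominated, 9 of 19 (47.4%) in Gcg-dominated and 56 of 186 (30.1%, 23.6 to 37.2) in Neurog3-positive cells. Neurog3-positive cells on EA03 had 184 CPM, above the acinar level, so the levels overlapped between plates although the shares differed: 14 of 43 Neurog3-positive cells of EA03 reached 20 CPM.

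The chains were seen together in 20 of 43 acinar cells (46.5%), with Slc7a5 alone in 5, Slc3a2 alone in 14 and neither in 4. Only 8 of 186 Neurog3-positive cells (4.30%), 10 of 69 insulin-dominated cells (14.5%) and 0 of 19 Gcg-dominated cells had both. Among acinar cells the share with Slc3a2 was 80% in cells with Slc7a5 and 77.8% in those without, so Slc3a2 was as frequent with Slc7a5 as without it. In Gcg-dominated cells the 4 cells with Slc7a5 and the 9 with Slc3a2 were different cells. The 30 acinar cells with Mki67 at 20 CPM had 66.5 CPM of Slc7a5 and 181 CPM of Slc3a2, and the 13 without had 52.4 and 146.1 CPM, so both chains were also read in acinar cells without this gene.

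**Figure D3:**
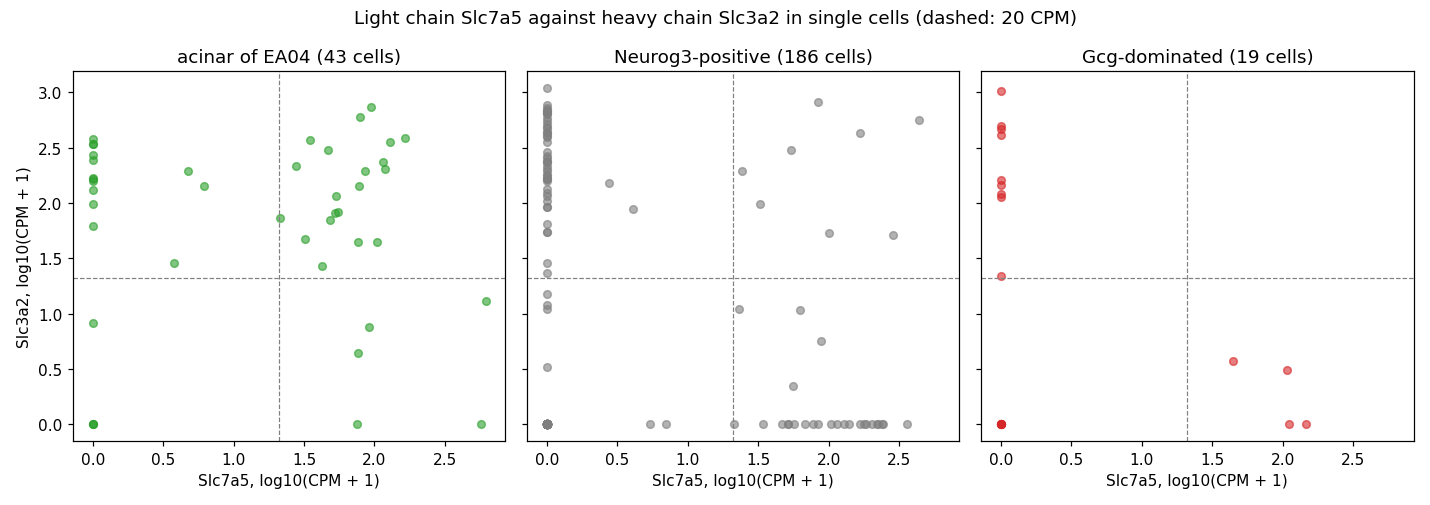
Each point is 1 cell, with log10(CPM + 1) of Slc7a5 on the horizontal and of Slc3a2 on the vertical axis, in acinar, Neurog3-positive and Gcg-dominated cells; dashed lines mark 20 CPM. The upper right field holds 20 of 43 acinar cells, 8 of 186 Neurog3-positive cells and 0 of 19 Gcg-dominated cells.

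Slc38a2 was spread over all classes, with its lowest level in Gcg-dominated cells. It stood at 221 CPM in Ppy-dominated cells, 211 CPM in the other cells of EA04, 162 CPM (156.2 to 168) in acinar, 137.4 CPM in Neurog3-positive, 89.9 CPM in insulin-dominated, 74.8 CPM in Sst-dominated and 59.3 CPM (54.8 to 63.99) in Gcg-dominated cells. The share of cells at 20 CPM was 21 of 23 (91.3%) in the other cells of EA04, 33 of 43 (76.7%, 61.4 to 88.2) in acinar and 87 of 186 (46.8%) in Neurog3-positive cells, and 4 of 19 (21.1%, 6.05 to 45.6) in Gcg-dominated cells. A single Gcg-dominated cell held 46.1% of that class's reads. Plates of Neurog3-positive cells ran from 66.2 CPM (EA01) to 238 CPM (EA06), on both sides of the acinar level.

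Slc38a4 was highest in insulin-dominated cells at 100.7 CPM (97.5 to 103.8), followed by the other cells of EA04 at 89.5 CPM, Sst-dominated cells at 61.1 CPM, acinar cells at 43.3 CPM and Gcg-dominated cells at 40.99 CPM. Of insulin-dominated cells 29 of 69 (42.03%) reached 20 CPM, against 13 of 43 acinar (30.2%), 4 of 19 Gcg-dominated (21.1%) and 18 of 186 Neurog3-positive cells (9.68%). The insulin-dominated plates spanned 18.3 CPM (EA06) to 233 CPM (EA02). In rows D and H of EA01 to EA03, 9 of 10 insulin-dominated cells reached 20 CPM, against 4 of 18 in the other rows of these plates.

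Slc38a10 differed more between plates than between classes. Class levels ran from 21.3 CPM in acinar and 21.7 CPM in Gcg-dominated cells to 79.1 CPM in Neurog3-positive and 93.9 CPM in Sst-dominated cells. EA07 held 210.4 CPM in Neurog3-positive, 238 CPM in insulin-dominated, 264 CPM in Sst-dominated and 123.2 CPM in cells with neither, while the next plate of these classes had 74.7, 107.1, 7.63 and 41.5 CPM. EA07 was also the deepest plate, with a median of 851992 counts and 3902 genes per cell, and the part of depth was not tested. On the 3 Neurog3-positive plates with the higher share of Rn45s its level was 10.8 to 24.4 CPM, a range that holds the acinar level. On EA05, an E15.5 plate with the lower share (9.72%), it was 11.8 CPM in Neurog3-positive cells, within the same range.

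**Figure D4:**
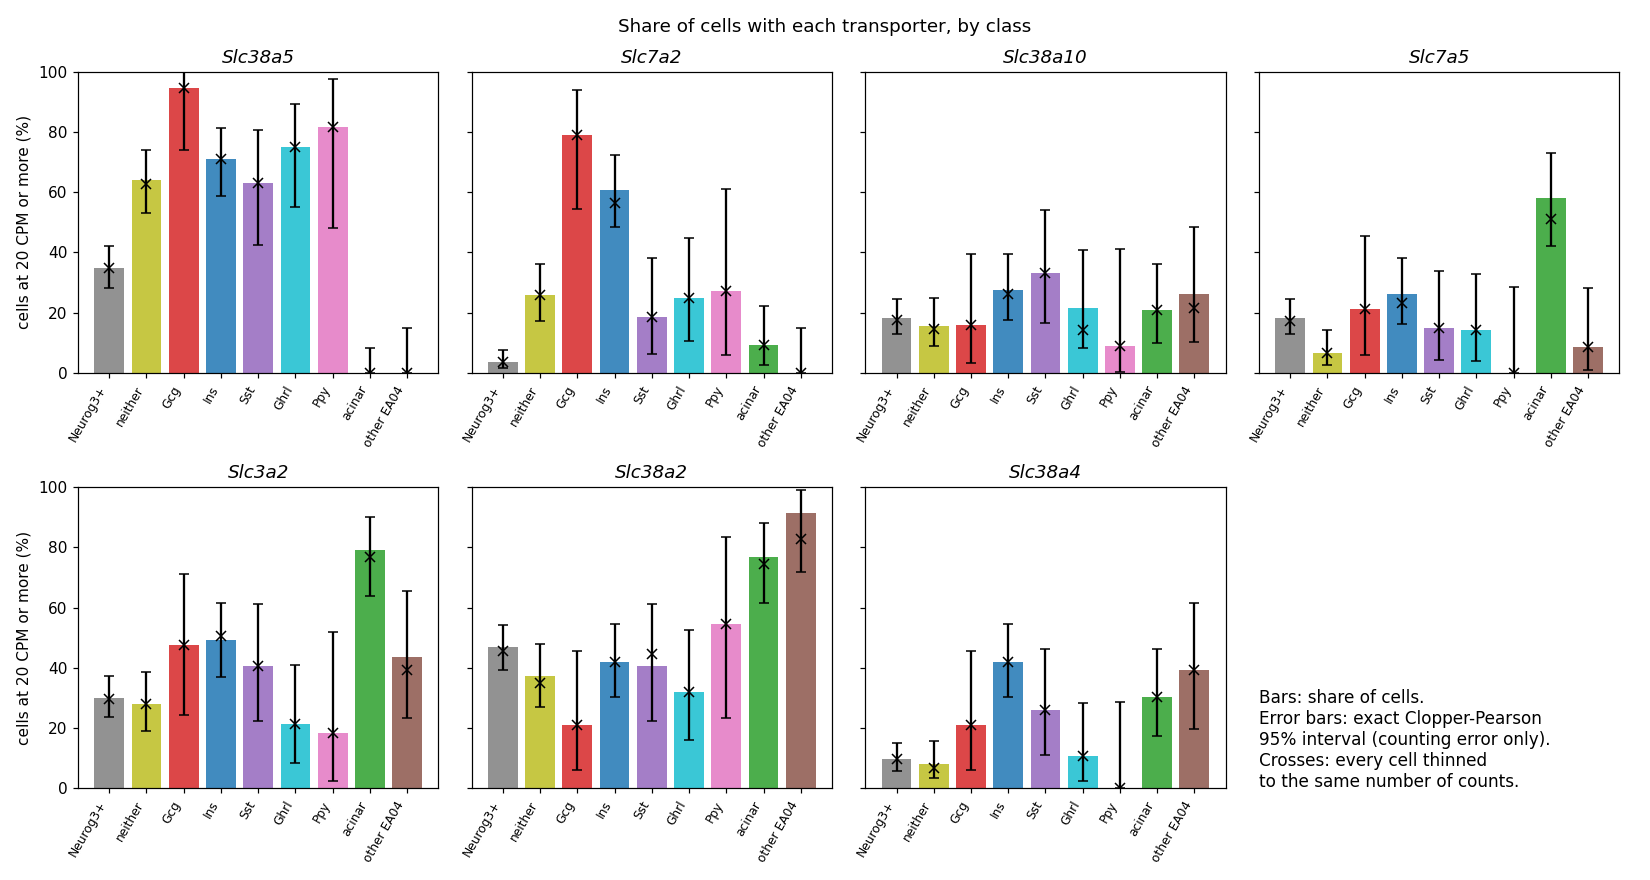
Bars give the percentage of cells of each class at 20 CPM or more of a gene, with exact Clopper-Pearson 95% intervals, and crosses the percentage after every cell was thinned to 200152 counts. Slc38a5 reaches 94.7% in Gcg-dominated and 0% in acinar cells, and Slc3a2 79.1% in acinar cells.

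The 7 genes were then set against each other. On CPM per kilobase of exon, Gcg-dominated cells had 4061 for Slc38a5, 62.1 for Slc7a2 and 42 for Slc3a2, with 3.38 to 9.62 for the other 4. Acinar cells had 48.5 for Slc3a2, 18.3 for Slc38a2, 16.9 for Slc7a5 and 10.2 for Slc38a4. A Gcg-dominated cell had a median of 3 members at 20 CPM, with Slc38a5 and Slc7a2 the most frequent, and an acinar cell also had 3, with Slc3a2, Slc38a2 and Slc7a5 the most frequent. Over 26 sums of a class on a plate, Slc38a5 and Slc7a2 had the highest correlation of any member pair (Pearson r = 0.47 on log2 CPM + 5), and the other pairs lay between -0.20 and 0.39. These points share plates and depth.

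The genes whose level was most like that of Slc38a5 over the same 26 points, of 7078 genes, were Hepacam2 (r = 0.86), Cryba2 (r = 0.84) and Pax6 (r = 0.84). For Slc7a2 they were Ociad2 (r = 0.82), Tmsb15b2 (r = 0.79) and Tmem27 (r = 0.73). For Slc7a5 the highest was Sft2d2 (r = 0.70), for Slc3a2 Rnh1 (r = 0.82), for Slc38a2 Lsm1 (r = 0.80), for Slc38a4 Zfp952 (r = 0.78) and for Slc38a10 Bckdha (r = 0.84).

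The comparison of acinar with Neurog3-positive cells set exocrine against endocrine-committed cells. All 43 acinar cells are E15.5 cells of EA04, which held no Neurog3-positive cell, so class and plate cannot be told apart. Of the 186 Neurog3-positive cells 55 are of E17.5 and its other strain, so stage and strain are mixed in this class only. The same holds for the gene lists compared between these classes below. Of the 6 members measured at 20 CPM in either class, 1 was over 2-fold higher in acinar cells and 2 over 2-fold lower, against a background of 14% of 7926 genes higher and 30.9% lower (median of all genes -0.43, and -0.11 with TMM factors, which gave 20.1% and 22.8%). Slc7a5 was the higher one, with a log2 ratio of 1.23 (0.91 with a pseudocount of 20 CPM, below the threshold). A single acinar cell, at 614 CPM, held 21.9% of the acinar reads of Slc7a5, and the next highest had 569 CPM. The ratio without these cells was not computed. Slc38a5, with 0 counts in acinar cells, was at least 3854-fold lower when put at the floor of 0.162 CPM. Slc38a10 was lower by its log2 ratio of -1.68, which was -0.16 without EA07. Slc3a2 had 0.75, but passed 2-fold with TMM factors (1.09), DESeq2 size factors (1.14) or without EA03 (1.06). Slc38a2 had 0.23 and Slc38a4 0.30, and Slc7a2 did not reach 20 CPM in either class. All of these classes chose the members, so nothing is read from the counts against the background.

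Gcg-dominated against Neurog3-positive cells gave 2 of 7 members over 2-fold higher and 2 lower, against a background of 19.2% and 23.7% of 8165 genes. Slc7a2 had a log2 ratio of 5.80 and Slc38a5 of 3.86. Slc38a2 had -1.15 and Slc38a10 -1.65. The lower pair was less firm: with the mean of the cells' own CPM or with thinned cells only Slc38a5 and Slc7a2 remained past 2-fold, and without EA07 Slc38a10 was at -0.06. Slc38a2 was at -2.80 without EA05, at -0.84 without EA06 and at -0.92 without EA07. Slc3a2 (0.55), Slc38a4 (0.23) and Slc7a5 (0.04) were within 2-fold, and Slc3a2 stood at 1.48 on EA01 to EA04, at -0.12 on EA05 to EA07 and at -0.02 without EA01.

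Gcg-dominated against insulin-dominated cells gave 2 of 7 members higher and 2 lower, with 20% and 19.6% of 7906 genes. The log2 ratio was 2.03 for Slc38a5 and 1.84 for Slc7a2, and -1.29 for Slc38a10 and -1.20 for Slc38a4. Slc38a5 was higher within each of 6 plates, from 0.27 (EA03, 1 Gcg-dominated cell) to 5.94 (EA06), and was at 1.97 without rows D and H of EA01 to EA03. Slc7a2 was higher within 5 of 6 plates and at -2.36 on EA07. Slc38a10 was at 0.00 without EA07 and at -2.46 without EA05, and Slc38a4 was at -0.48 on EA01 to EA04 and at -0.82 without EA05.

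Acinar against Gcg-dominated cells gave 2 of 7 members higher and 2 lower, with 21.7% and 35.8% of 8005 genes (median -0.43, and 28.96% and 27.2% with TMM factors). Slc38a2 (1.38) and Slc7a5 (1.19) were higher in acinar cells. Without EA05 Slc38a2 was at 3.01 and Slc7a5 at 0.77. Slc38a5 was at least 56216-fold lower when put at the same floor, and Slc7a2 had a log2 ratio of -5.25. Slc3a2 was within 2-fold at 0.20. These classes share no plate either, so class and plate cannot be told apart.

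Of 47 other amino acid transporters listed, 22 reached 20 CPM in some class. In acinar against Neurog3-positive cells 4 of 11 measured were over 2-fold higher and 3 lower, beside 14% and 30.9% of all genes (20.1% and 22.8% with TMM factors). Slc38a3, a system N carrier of glutamine, stood at 313 CPM in acinar against 10.9 CPM in Neurog3-positive cells and at 0 in Gcg-dominated cells. Slc7a1, another cationic carrier beside Slc7a2, was at 91.8 against 8.35 CPM, and at 51.6 CPM in Gcg-dominated cells. Slc1a5, a neutral amino acid exchanger, was at 86.4 against 0.00949 CPM from 1 count. Slc43a2, a carrier of branched-chain and aromatic amino acids, was lower in acinar cells at 0.378 against 70.7 CPM. Acinar and Gcg-dominated cells thus each had a Slc38 carrier of glutamine that was at 0 in the other class.

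In Gcg-dominated against Neurog3-positive cells 5 of 12 other transporters were higher and 3 lower, beside 19.2% and 23.7% of all genes. Slc16a10, a carrier of aromatic amino acids, stood at 357 CPM against 4.16 CPM, at 106.1 CPM in insulin-dominated cells and at 0 in acinar cells, where it was at least 2203-fold lower when put at the floor. Slc7a14, a lysosomal relative of the cationic carriers, was at 149.9 against 18.9 CPM and also at 0 in acinar cells. Slc38a1, a carrier like Slc38a2, was lower at 4.98 against 84.02 CPM. So Slc38a1 and Slc38a2 both had lower levels in the Gcg-dominated cells.

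**Figure D5:**
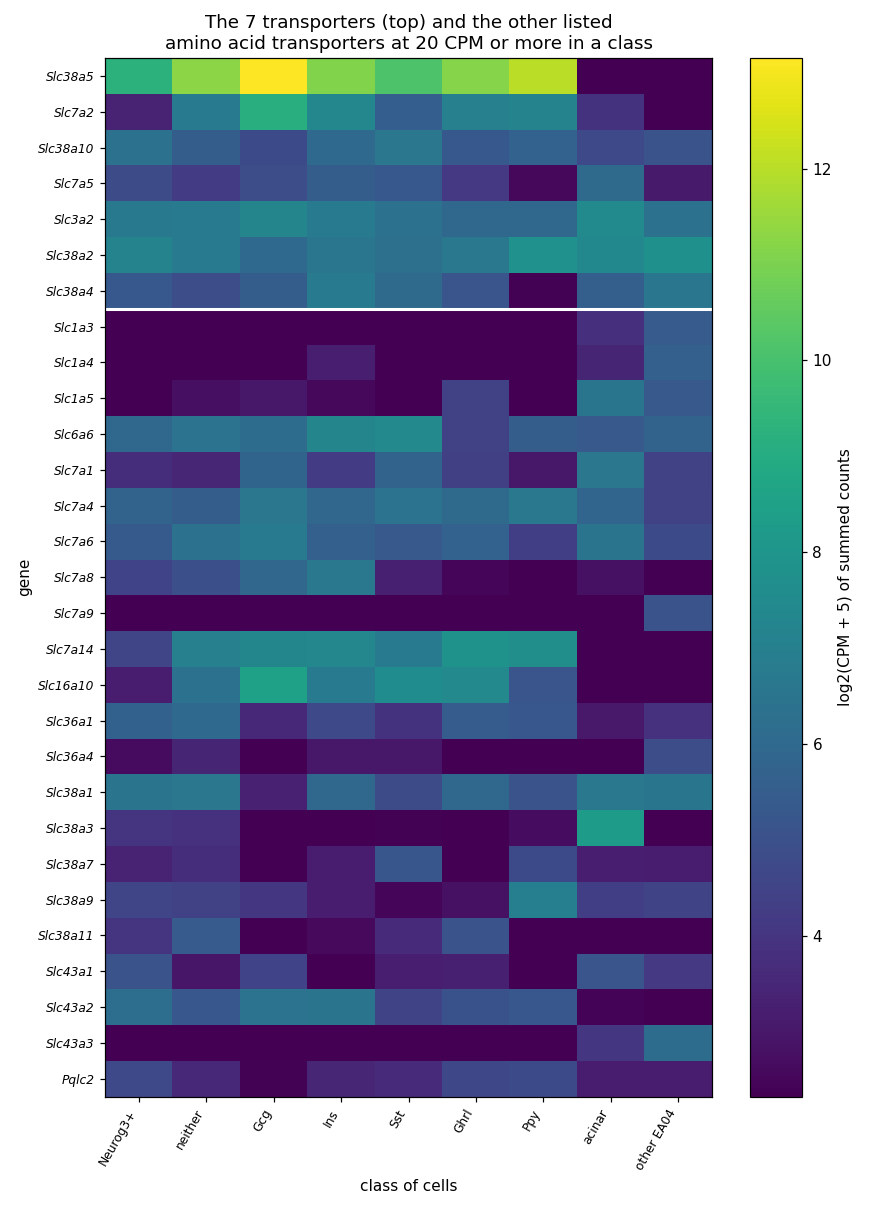
Colour gives log2(CPM + 5) of summed counts for the 7 genes (above the white line) and for the 22 other listed transporters at 20 CPM or more in a class, by class of cells. Slc38a5, Slc7a2, Slc16a10 and Slc7a14 are bright in hormone-dominated classes, and Slc38a3 (313 CPM) is bright in acinar cells only.

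Genes of the amino acid response, which ATF4 switches on when amino acids run short, had 9 of 16 measured members higher and 5 lower in acinar than in Neurog3-positive cells (median log2 ratio 1.21, against -0.43 for all genes, of which 14% were higher and 30.9% lower). Asns, the asparagine synthetase gene, stood at 672 against 20.02 CPM, Phgdh and Psat1 of serine synthesis at 589 against 9.42 CPM and 203 against 13.7 CPM, and Nupr1 at 777 CPM against 0 counts, which fixed its direction. Phgdh and Psat1 were not particular to acinar cells, with 285 and 346 CPM in the other cells of EA04. Among the 5 lower genes was Atf4 itself, at 126.4 CPM in acinar and 332 CPM in Neurog3-positive cells. The other lower ones were Atf3 (72.4 against 279 CPM), Ddit3 (14.3 against 54.1 CPM), Ppp1r15a (20.2 against 86.4 CPM) and Sesn2 (4.96 against 26.2 CPM). Slc7a5, Slc3a2 and Slc38a2 are known targets of the same response, and 1 of these 3 was over 2-fold higher. In Gcg-dominated against Neurog3-positive cells 2 of 13 were higher and 3 lower, beside 19.2% and 23.7% of all genes, with Asns at 123.2 CPM and Atf3 at 26.3 against 279 CPM.

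The amino acid sensing genes of mTORC1, the kinase complex that ties growth to amino acids, had 0 of 18 measured members higher and 7 lower in acinar than in Neurog3-positive cells (median -0.75, against -0.43 for all genes, of which 14% were higher and 30.9% lower). Against insulin-dominated cells, Gcg-dominated cells had 9 of 20 higher and 2 lower (median 0.40, against 0.07 for all genes, of which 20% were higher and 19.6% lower). Rragb, a Rag GTPase, stood at 71.6 against 2.40 CPM, Mios of the GATOR2 complex at 112.9 against 12.9 CPM, Mlst8, a subunit of mTORC1, at 50.8 against 8.77 CPM, and Gatsl2, of the arginine sensor family, at 186 against 42.9 CPM. Gatsl2 had 1 count in all acinar cells. Other endocrine classes had like levels: Rragb was at 77.8 CPM in Ghrl-dominated and Mios at 136.5 CPM in Ppy-dominated cells. Gatsl2 was at 157.5 CPM in Ghrl-dominated and 150.6 CPM in Ppy-dominated cells, while Mlst8 was lower there, at 8.37 and 0 CPM. Mios and Rragb had 0 counts in the Gcg-dominated cells of E17.5.

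Genes that use arginine and glutamine were compared too. In Gcg-dominated against insulin-dominated cells 4 of 9 were higher and 1 lower, beside 20% and 19.6% of all genes. Glud1, glutamate dehydrogenase, stood at 1005 against 211 CPM, Got1, an aspartate aminotransferase, at 71.7 against 10.9 CPM and Arg1, arginase, at 96.1 against 17.04 CPM. Arg1 and Glud1 were higher still in Ghrl-dominated cells at 1051 and 1441 CPM. In acinar against Gcg-dominated cells 4 of 11 were higher and 4 lower, beside 21.7% and 35.8% of all genes, with Odc1, which makes polyamines from ornithine, at 356 against 34.1 CPM and Gatm, of creatine synthesis, at 60.3 against 1.81 CPM.

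Cytosolic tRNA synthetases, which load amino acids onto tRNA, were measured for all 20 listed. In acinar against Neurog3-positive cells 3 were higher and 2 lower, beside 14% and 30.9% of all genes, with Eprs at 362 against 133.2 CPM, Kars at 359 against 135.4 CPM and Gars at 179 against 602 CPM. In acinar against Gcg-dominated cells 8 were higher and 0 lower, beside 21.7% and 35.8% of all genes (28.96% and 27.2% with TMM factors), with Mars at 103.3 CPM against 0 counts and Vars at 92.5 against 1.99 CPM. With 19 Gcg-dominated cells a gene in few cells can be missed, and Mars was at 38.8 CPM in insulin-dominated cells.

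E17.5 was compared with E15.5 within a class. In Neurog3-positive cells, 55 of 186 at E17.5, 1 of 6 measured members was over 2-fold higher and 0 lower, with 23.9% and 5.72% of 8041 genes (median 0.33, and 0.01 with TMM factors, which gave 15.8% and 11.4%). Slc38a10 stood at 176 against 16 CPM (log2 ratio 3.11, and 1.92 without EA07). Slc38a5 was at 675 against 590.2 CPM (0.19), Slc3a2 at 96.7 against 101.3 CPM (-0.06), Slc7a5 at 27.2 against 21.7 CPM (0.27) and Slc38a2 at 185 against 106.2 CPM (0.77). Slc38a4 was at 49.02 against 24.4 CPM (0.88), but at 0 on EA06, so its ratio was -2.55 without EA07. Slc7a5 and Slc3a2 were at 0 in the 7 Neurog3-positive cells of EA05, so on EA05 to EA07 alone their ratios were 2.69 and 4.35, and that of Slc3a2 was 0.59 without EA03.

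In insulin-dominated cells (14 against 55) 1 member was higher and 2 lower, with 21.6% and 15.8% of 7742 genes. Slc38a10 was at 163 against 23.8 CPM (2.55) and turned to -0.25 without EA07. Slc38a5 was at 1202 against 2582 CPM (-1.10, -4.18 without EA07 and -0.56 without EA06, where 6 cells had 137.4 CPM). Slc7a5 was at 15.6 against 49.2 CPM (-1.39, and -3.44 without EA07). Slc7a2 stood at 145.1 against 158.0 CPM.

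The Gcg-dominated class had 3 cells at E17.5 and 16 at E15.5, so its stage values describe few cells. Slc38a5 was at 8902 against 9150 CPM (-0.04), with the 3 cells at 5004, 9256 and 12306 CPM. Slc7a2 was at 223 against 653 CPM (-1.53), with 1 of the 3 cells at 646 CPM and the others at 0 and 14.8 CPM. Slc3a2 was at 0.911 CPM from 2 counts against 185 CPM, and Slc38a2 and Slc38a10 were at 0. In all, 1 of 7 members was over 2-fold higher (Slc7a5, 63.3 against 15.1 CPM) and 4 lower, with 29.2% and 41.8% of 7449 genes past 2-fold, so large ratios were common here.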

How the data were processed

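Single cells of mouse embryonic pancreas were sequenced by Smart-seq. The authors deposited 1 table of unnormalized counts, whole numbers for each gene in each cell. The submitters' processing notes name the mm10 build and, as tools, HTSeq, STAR and FastQC, with versions not given in the sources used here. Reads carry no molecular identifiers and strand was not marked. Groups follow the labels; the table's column names call every plate a knock-in, also EA06 and EA07. No cell was removed and doublets were not called.

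The members, classes and gene lists were chosen with earlier results of these data known. Counts were summed per class and divided by the class total. The log2 ratio added 5 CPM, which understates ratios of low genes; a gene was measured at 20 CPM in either class and called past 2-fold. Levels carry exact Poisson intervals and shares exact Clopper-Pearson intervals (95%, scipy 1.17.1). A fold against 0 counts used a floor of 3 counts over the class. Besides the members, the text names up to 4 genes of each of 5 pathway lists with the largest absolute ratio in a comparison, and the 3 genes most correlated with a member. Some values were added after they were seen: the amino acid response genes lower in acinar cells, and Phgdh and Psat1 in the other cells of EA04. So were Arg1, Glud1 and the mTORC1 genes in Ghrl-dominated or Ppy-dominated cells, and Mars in insulin-dominated cells. Lists count 217 of 222 genes in the table. Some genes of these lists are not reported here by name. Alternatives were edgeR 4.0.16 TMM factors, DESeq2 1.42.0 size factors, other thresholds, pseudocounts, totals and class cuts, thinning, EA01 to EA04 or EA05 to EA07 alone (the labels name no batch) and each plate left out. Leaving out well rows D and H, well D2 or a cell of EA02 above the enzyme cut, and the splits by Fev and Mki67, were added after the data were seen. Positions and exon lengths are from GENCODE M21, and promoters from RefSeq. The ratio script was tested on simulated data.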

Additional observations from a re-analysis of the deposited data

Results flagged for a closer look

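Of 21 sets of 6 plates (a member in a class with 6 plates of at least 5 cells), 4 had a plate far above the others, by a gap of more than 0.625 of the whole range. Chance gives about 1 in 20 for independent, normally distributed values. These sets share plates and are sums of few cells, so that rate need not hold and no excess is read from the count. Slc38a10 had 210.4 CPM in Neurog3-positive cells of EA07, where the next plate had 74.7 CPM, and 123.2 CPM in EA07 cells with neither a hormone nor Neurog3, next to 41.5 CPM. Slc38a2 had 287 CPM in insulin-dominated cells of EA06, next to 99.4 CPM. Slc7a2 had 322 CPM in EA06 cells with neither, next to 122.6 CPM.

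For a pair of members the stage ratio was past 2-fold in opposite directions in different classes; the difference was not tested. For Slc38a10 the log2 ratio of E17.5 to E15.5 was 3.11 in Neurog3-positive and 2.55 in insulin-dominated cells, but -2.68 in Gcg-dominated cells, where 3 cells of E17.5 had 0 counts. For Slc7a5 it was 1.76 in Gcg-dominated and -1.39 in insulin-dominated cells.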

How the results depend on the processing

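Across the alternatives, 883 member ratios stayed within their counting interval, 535 moved beyond it and 3 changed sign from a value past 2-fold; ratios under 2-fold also changed sign in places. The 3 were all of Slc38a10: 0.31 (acinar against Neurog3-positive) and 0.47 (Gcg-dominated against Neurog3-positive) on EA01 to EA04 only, and for stage in insulin-dominated cells -0.25 without EA07, in a range up to 3.43 (without EA03). Members past 2-fold in acinar against Neurog3-positive cells went from 3 to 1 at 4-fold. In Gcg-dominated against Neurog3-positive cells they went from 4 to 2 with the mean of cell CPM, with thinned cells and at 4-fold, and ranged from 2 (without EA07) to 4 over plates left out. Against insulin-dominated cells they went from 4 to 2 with a pseudocount of 20 CPM and 1 at 4-fold, and in acinar against Gcg-dominated cells from 4 to 2 at 4-fold. By stage in Neurog3-positive cells 1 became 2 without a filter on low genes or with Neurog3 at 100 CPM, 3 at 1.5-fold and 4 on EA05 to EA07 only, with 1 to 3 over plates left out (3 without EA03 or EA07, 2 without EA06). By stage 5 became 3 at 4-fold in Gcg-dominated cells, and in insulin-dominated cells 3 became 5 at 1.5-fold and 1 at 4-fold, with 1 (without EA06) to 4 (without EA07) over plates left out. Other thresholds change the count by construction; for the rest the cause was not tested. Acinar comparisons have no value without EA04 or on EA05 to EA07 alone. No paired analysis was possible because the labels carry no replicate numbers and no test was run; ratios within a plate are given as values. The 19 Gcg-dominated and 11 Ppy-dominated cells limit the precision of the shares.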

Other observations

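Cells with neither a dominant hormone nor Neurog3 had a high Slc38a5 level (2477 CPM) with Fev (64 cells, 2678 CPM) and without it (25 cells, 1878 CPM). The highest Slc38a5 level of any of the 495 cells, 26503 CPM, was in a cell of this kind with Fev, above the 17053 CPM of the highest Gcg-dominated cell.

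On EA02, 1 insulin-dominated cell had enzyme reads above the acinar threshold. It had 1592 CPM of Slc38a5, 83.3 CPM of Slc7a2 and 45.9 CPM of Slc7a5, and 4870 genes were read in it. Doublets were not called, and whether it holds a single cell was not tested.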
